A study of Triticum aestivum with 4 samples.

Results

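The miR397, miR398, miR408 and miR528 families are plant miRNA families whose known targets include mRNAs of copper proteins. Their members were taken from the deposited miRNA expression table by name, as every row starting with miR397, miR398, miR408, miR528 or miR857, and 7 of the 348 listed miRNAs met this rule. They comprised 2 rows of miR397 (miR397a and miR397-3p), 2 of miR398 (miR398a-3p and miR398f-5p), 1 of miR408 (miR408d) and 2 of miR528 (miR528-5p and miR528a-3p), and no row was named miR857. Only 4 of the 7 exceeded 5 RPM in at least 1 library, namely miR397a, miR398a-3p, miR398f-5p and miR528-5p.

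The samples were crown tissues, the stem base that carries the shoot apical meristem, of the semi-winter wheat cultivar Shimai 22, sown in autumn and grown in the field under natural weather without any other treatment. Crowns were collected at the three-leaf stage, the winter dormancy stage, the spring green-up stage (also called double ridge stage, when floral primordia form) and the jointing stage, when the stem elongates. Each stage was represented by 1 small RNA library, made from equally pooled total RNA of 3 biological replicates, so no difference between stages has a replicate check, and all intervals given here cover counting error only. Expression was given in RPM, tags per 1000000 reads. The step between low values placed the depth at about 21674600 reads for the three-leaf library, 20533700 for dormancy, 21888600 for green-up and 20800800 for jointing, so that 1 RPM stood for 20.5 to 21.9 reads. These depths lie close to the counts of genome-mapped reads that the paper gives, which are lower than its counts of clean reads. Stage also stands for season, temperature and plant age, which cannot be told apart here. Only miRNAs are listed, so the tissue label was not checked against marker genes.

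Plants use these miRNAs to economise copper. In Arabidopsis, when copper is scarce, the transcription factor SPL7 activates miR397, miR398, miR408 and miR857, which then lower the mRNAs of dispensable copper proteins, so that copper remains for plastocyanin in photosynthesis. miR397 targets laccases, the copper oxidases that polymerise lignin in the cell wall. miR398 targets the Cu/Zn superoxide dismutases and their copper chaperone, which detoxify superoxide. miR408 targets plantacyanin and laccases, and miR528, a family of monocots, targets ascorbate oxidase in rice and laccases in maize. The paper also cites work in which wheat TOC1, a gene of the circadian clock, was a target of miR408. The mRNA levels of these targets were not analysed here.

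The mature sequences are shown because they tell the families apart and show which rows can pair as arms of a hairpin. Each is printed 5′ to 3′ as in the deposited table, with the seed, bases 2 to 8, in capitals.
miR397a: uUGAGUGCagcguugaugaac
miR397-3p: uCACCGGCgcugcacacaauu
miR398a-3p: uGUGUUCUcaggucgcccccg
miR398f-5p: aGGGUCGAacugagaacacau
miR408d: uGCACUGCcucuucccuggc
miR528-5p: uGGAAGGGgcaugcagaggag
miR528a-3p: cCUGUGCCugccucuuccauu
The 7 seeds were all different, and 0 of the 7 rows shared bases 2 to 8 with any other listed miRNA. Likewise, 0 of the 7 lay within 3 mismatches of another listed miRNA of equal length. Both counts cover listed rows only, and the authors had combined redundant miRBase sequences before their search. Reads were assigned with fewer than 2 mismatches. miR408d was 20 nt long and the other 6 rows were 21 nt. RPM counts tags whatever their length, so the rows can be set side by side without a length correction. Even so, the yield of a small RNA library also depends on how well each sequence ligates to the adaptors.

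Of the 7 rows, 5 began with U, 1 with A (miR398f-5p) and 1 with C (miR528a-3p). In the whole table, 43.7% of the miRNAs began with U, the base that Arabidopsis AGO1, the main miRNA effector, prefers at the 5′ end. Paired without gaps, miR528-5p and miR528a-3p opposed 19 bases at the overhang of 2 nt that DCL1 leaves at 3′ ends, of which 16 were Watson-Crick and 1 was a G:U pair. For miR397a and miR397-3p, the same register gave 15 Watson-Crick and 2 G:U pairs among 19. miR398f-5p and miR398a-3p matched best with an overhang of 1 nt, with 17 Watson-Crick pairs among 20 opposed bases, against 4 Watson-Crick and 4 G:U pairs among 19 at 2 nt. By sequence, therefore, each of these families was listed with 2 rows that can pair as arms, although miR398a-3p and miR398f-5p carry the names of different hairpins.

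Sequence was also shared across families. miR408d and the 3p row of miR528 had a run of 11 nt in common, shown here in capitals.
miR408d: ugcaCUGCCUCUUCCcuggc
miR528a-3p: ccugugcCUGCCUCUUCCauu
The run covers bases 5 to 15 of miR408d and bases 8 to 18 of miR528a-3p. It was found in 2 of the 348 listed miRNAs (0.575%), these same rows. As the run was picked from these rows, its presence in both was given. How often other pairs of listed miRNAs share a run of this length was not counted. Among all other pairs of the 7 rows, the longest shared run was 5 nt.

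miR398 was the most abundant of these families before spring. The row miR398a-3p, by name the arm that targets superoxide dismutase mRNA, had 76.3 RPM in three-leaf crowns, 91.7 RPM in dormant crowns, 3.7 RPM in green-up crowns and 6.1 RPM in jointing crowns. These values stood for about 1654, 1883, 81 and 127 reads, with 95% Wilson intervals of 72.7 to 80.1, 87.7 to 95.9, 2.98 to 4.6 and 5.13 to 7.26 RPM. Both libraries from before spring thus lay far above both spring libraries. The 5p row, miR398f-5p, had 42.2, 76.7, 8.4 and 7.7 RPM at the 4 stages, or about 915, 1575, 184 and 160 reads. It showed the same split between the early and the later libraries.

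miR397a, the laccase regulator, had 30.7 RPM in three-leaf crowns, 35.2 RPM in dormant crowns, 7.5 RPM in green-up crowns and 15.7 RPM in jointing crowns, from about 665, 723, 164 and 327 reads. In RPM it too was higher in both early libraries than in both later ones. Its jointing value stood well clear of its green-up value (Wilson intervals 14.1 to 17.5 and 6.43 to 8.73 RPM). As a share of the summed RPM of all listed miRNAs, however, miR397a had 0.0215% at the three-leaf stage and 0.0228% at jointing. miR397-3p was listed at 0 in the first 3 libraries and at 1 RPM (about 21 reads) at jointing.

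miR528-5p, the monocot family, was high at a single stage. It had 5.1 RPM in three-leaf crowns, 24.6 RPM in dormant crowns, 5.3 RPM in green-up crowns and 4.1 RPM in jointing crowns, from about 111, 505, 116 and 85 reads. Dormancy was the only high library, and the Wilson intervals of the three-leaf and green-up values overlapped (4.25 to 6.17 and 4.42 to 6.36 RPM). The 3p row, miR528a-3p, was also highest at dormancy, at 3.9 RPM (about 80 reads) against 1.2 RPM (about 26 reads) at the three-leaf stage, and was listed at 0 in both spring libraries.

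miR408d was barely detected. It was listed at 2.3 RPM at dormancy (about 47 reads) and 2 RPM at jointing (about 42 reads), and at 0 at the three-leaf and green-up stages. Setting a 0 to the value of 3 reads, 0.138 RPM for the three-leaf library and 0.137 RPM for the green-up library, dormancy was at least 16.6-fold higher than the three-leaf stage and at least 16.8-fold higher than green-up, as long as the 0 stands for 3 reads or fewer. The lowest values above 0 in the 4 libraries corresponded to about 13, 6, 5 and 4 reads, so a listed 0 could also hide more than 3 reads. This applies most to the three-leaf library, with about 13 reads, where the true ratio could be far smaller than 16.6-fold. Taken with the same floor, miR528a-3p was at least 28.5-fold lower at green-up than at dormancy. All 3 low rows stayed under 5 RPM in every library, and none could pass the thresholds used below.

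**Figure D1:**
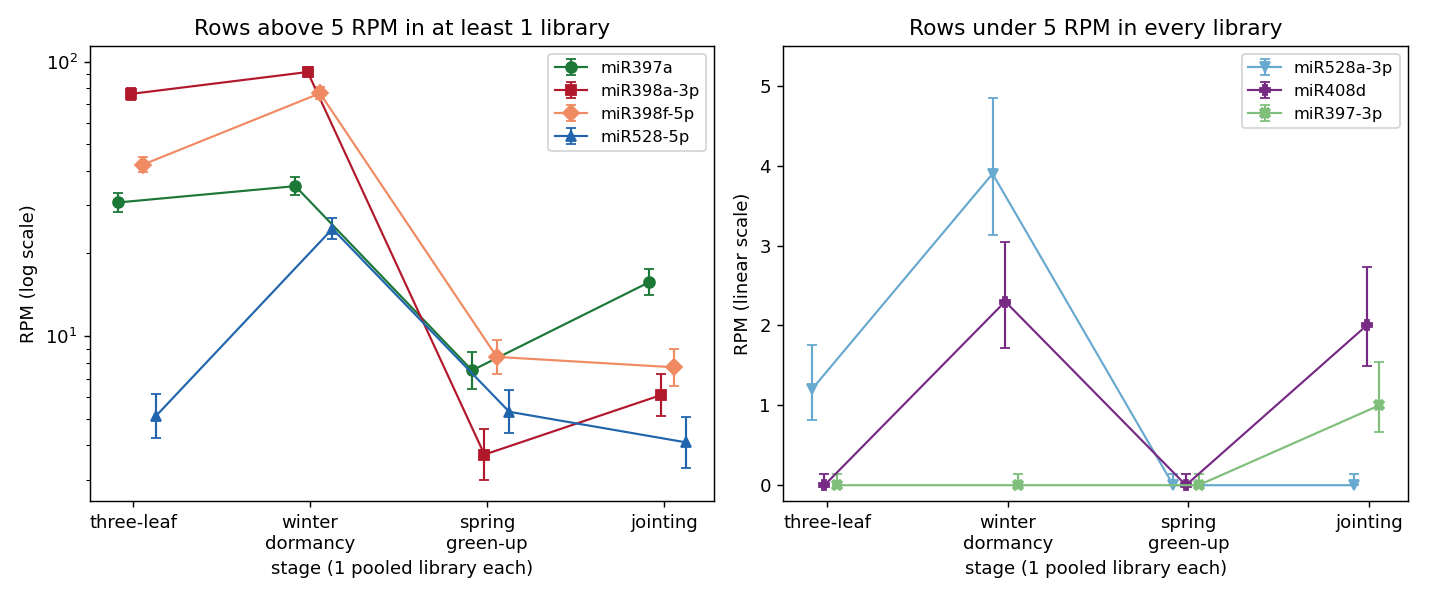
Expression (RPM) of the 7 rows at the 4 stages, with 1 pooled library a stage. The left panel has a log axis and holds the 4 rows above 5 RPM, and the right panel a linear axis and the 3 low rows. Bars are 95% Wilson intervals, or the value of 3 reads where a row is listed at 0, and cover counting error only. All 4 rows on the left are highest at dormancy, and miR398a-3p drops from 91.7 to 3.7 RPM at green-up.

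The order of the rows changed with the season. At dormancy it ran from miR398a-3p through miR398f-5p and miR397a (32.7 to 37.9 RPM) to miR528-5p (22.5 to 26.8 RPM), and no intervals of neighbours overlapped. At green-up, miR398f-5p (7.28 to 9.71 RPM) and miR397a (6.43 to 8.73 RPM) led with overlapping intervals, followed by miR528-5p and, last, miR398a-3p, whose intervals also overlapped. At jointing miR397a was the highest, above miR398f-5p (6.59 to 8.98 RPM) and miR398a-3p, which overlapped, and miR528-5p (3.31 to 5.05 RPM). Among all listed miRNAs, miR398a-3p ranked 95 from the top in three-leaf crowns, 79 in dormant crowns, 226 in green-up crowns and 174 in jointing crowns. miR397a ranked 136, 124, 197 and 134 at the same stages. These were moderate to low miRNAs throughout.

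Summed over the 7 rows, the copper families had 155.5 RPM in three-leaf crowns, 234.4 RPM in dormant crowns, 24.9 RPM in green-up crowns and 36.6 RPM in jointing crowns. All listed miRNAs together held 14.3%, 13.6%, 10.7% and 6.89% of the mapped reads in the same libraries. Of the 260 miRNAs above 5 RPM at the three-leaf stage or jointing, 191 had a lower RPM at jointing. As a share of the listed miRNAs, the copper rows made up 0.109%, 0.173%, 0.0232% and 0.0531%. The green-up minimum of the sum is thus present on both scales. The sum was mostly miR398, whose rows together had 168.4 RPM at dormancy. Not every row shared this minimum. In RPM, miR397a and miR398a-3p were lowest at green-up, but miR398f-5p and miR528-5p were lowest at jointing. In a whole crown, fewer cells that make a miRNA and less of it per cell cannot be told apart.

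To see whether the rows moved together, the stages were compared in pairs. A miRNA passed when it differed by more than 2-fold with over 5 RPM in either library, and changes are given as log2 of the later over the earlier RPM, with exact binomial intervals. From the three-leaf stage to dormancy, miR528-5p was the only one of the 4 tested rows to pass. It rose by 2.27 on the log2 scale (1.96 to 2.57), or 4.82-fold. In the whole table, 10.3% of the 252 miRNAs tested in this comparison passed as higher and 16.3% as lower. Among the 211 of them above 0 in both libraries, miR528-5p had the largest increase. The change was 0.86 for miR398f-5p (0.74 to 0.98), which ranked 12 from the highest in that set, 0.27 for miR398a-3p (0.17 to 0.36) and 0.20 for miR397a (0.04 to 0.35). All 4 values lay above 0, with a median of 0.56 against -0.01 over all tested miRNAs, of which 122 were above and 130 below 0. miR528a-3p, under the level threshold, had a value of 1.7 (1.05 to 2.4), next to that of its opposite arm.

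The largest shift came with green-up. From dormancy to green-up, all 4 tested rows passed as lower, where 28.8% of the 250 tested miRNAs did so and 17.2% passed as higher. miR398a-3p fell by 4.63 on the log2 scale (exact interval -4.97 to -4.31), which is 24.8-fold. miR398f-5p fell by 3.19 (-3.42 to -2.97), or 9.13-fold. The decreases of miR397a and miR528-5p were nearly equal, at -2.23 (-2.49 to -1.99) and -2.21 (-2.52 to -1.92). On RPM as deposited, all 4 rows thus passed 4-fold, which 15.2% of the tested miRNAs did in this direction. The median of the 4 was -2.71, against -0.28 for all tested miRNAs. Scaled to the summed RPM of listed miRNAs, or by the median ratio, miR397a (-1.89 and -1.79) fell short of 4-fold. So did miR528-5p (-1.88 and -1.78), whereas miR398a-3p (-4.29 and -4.19) and miR398f-5p (-2.85 and -2.75) still passed it. Of the 212 miRNAs above 0 in both libraries, miR398a-3p had the change ranked 5 from the lowest, miR398f-5p ranked 8, miR397a 14 and miR528-5p 16. The low rows miR408d and miR528a-3p were listed at 0 at green-up, and miR397-3p was at 0 in both libraries. Thus 6 of the 7 rows had their dormancy value above their green-up value, a count without the level filter. It includes miR408d and miR528a-3p, which rest on a listed 0. Among tested rows only, all 4 copper rows had a change below 0, as did 150 of the 250 tested miRNAs.

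From green-up to jointing the rows parted. miR397a was 2.09-fold higher at jointing, a log2 change of 1.07 (0.79 to 1.35), and was the only tested row to pass, while 16.4% of the 238 tested miRNAs passed as higher and 37.8% as lower. The change of miR398a-3p was 0.72 (0.31 to 1.14). For miR398f-5p and miR528-5p it was -0.13 (-0.44 to 0.19) and -0.37 (-0.80 to 0.04), both with intervals that include 0. Dividing the libraries by the summed RPM of the listed miRNAs added 0.64 to every log2 change of this step, and scaling by the median ratio of miRNAs above 0 in all libraries added 0.58. Both scalings gave miR398f-5p (0.51 and 0.45) and miR528-5p (0.27 and 0.21) values above 0, and took miR398a-3p (1.36 and 1.3) past 2-fold, so the sign of the former rows at this step rests on the scaling. With a pseudocount of 1 RPM, the value of miR397a was 0.97, just under the threshold. The median over all tested miRNAs was -0.70, below all 4 values.

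**Figure D2:**
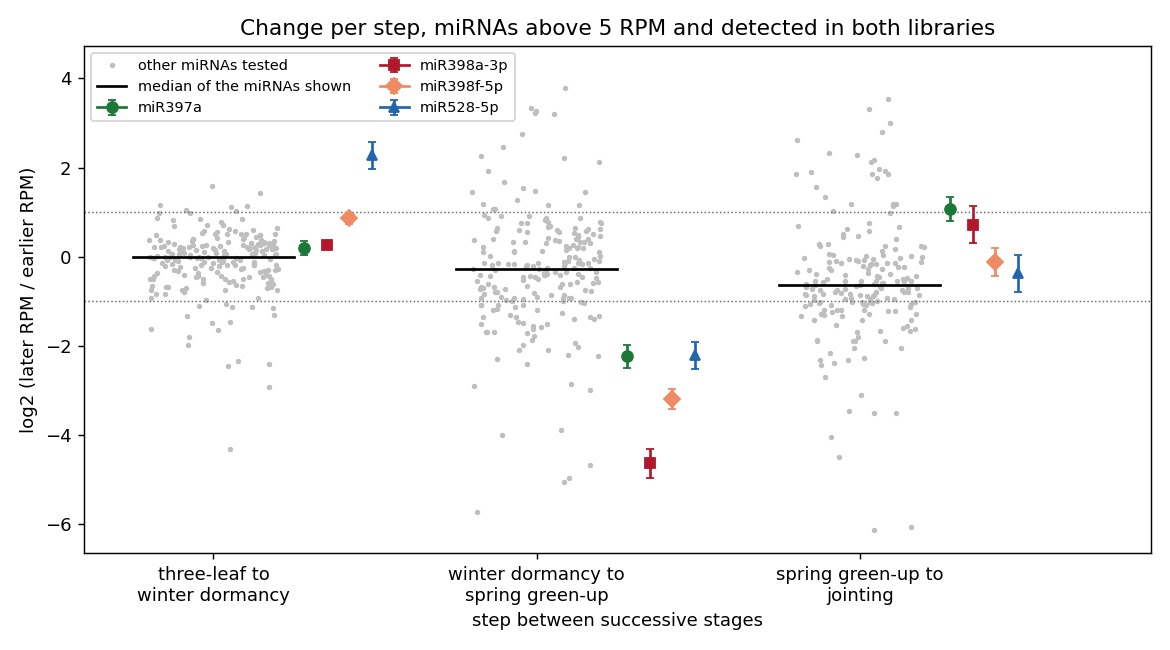
Log2 change of RPM at each of the 3 steps between successive stages. Coloured symbols are the 4 rows above 5 RPM with exact 95% binomial intervals, grey dots the other tested miRNAs above 0 in both libraries, black lines their median, and dotted lines a 2-fold change. miR528-5p lies above all grey dots at the first step (2.27), all 4 rows lie far below the median at the second, and miR397a is the highest of the 4 at the third (1.07).

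Across longer spans, dormancy was compared with jointing and the three-leaf stage with both spring stages. From dormancy to jointing, all 4 tested rows passed as lower, with log2 changes from -3.91 for miR398a-3p to -1.16 for miR397a, in a comparison in which 53.2% of the 250 tested miRNAs passed as lower. Under either scaling miR397a no longer passed here (-0.19 and -0.15), whereas the other 3 did. Between the three-leaf stage and green-up, 3 of the 4 passed as lower, as did 34.8% of 256 tested miRNAs. miR398a-3p was lower by 20.6-fold, miR398f-5p by 5.02-fold and miR397a by 4.09-fold, and miR528-5p had a log2 change of 0.06 (-0.34 to 0.44). Between the three-leaf stage and jointing, the rows of miR398 passed as lower (-3.64 and -2.45), and 54.6% of 260 tested miRNAs passed in that direction. miR397a, at -0.97 (-1.16 to -0.77), and miR528-5p, at -0.31 (-0.75 to 0.09), did not pass, and both turned positive under either scaling (0.08 for miR397a and 0.74 for miR528-5p). miR398 was therefore the family whose rows passed as lower in both spring libraries against both early ones, also when the libraries were rescaled.

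**Figure D3:**
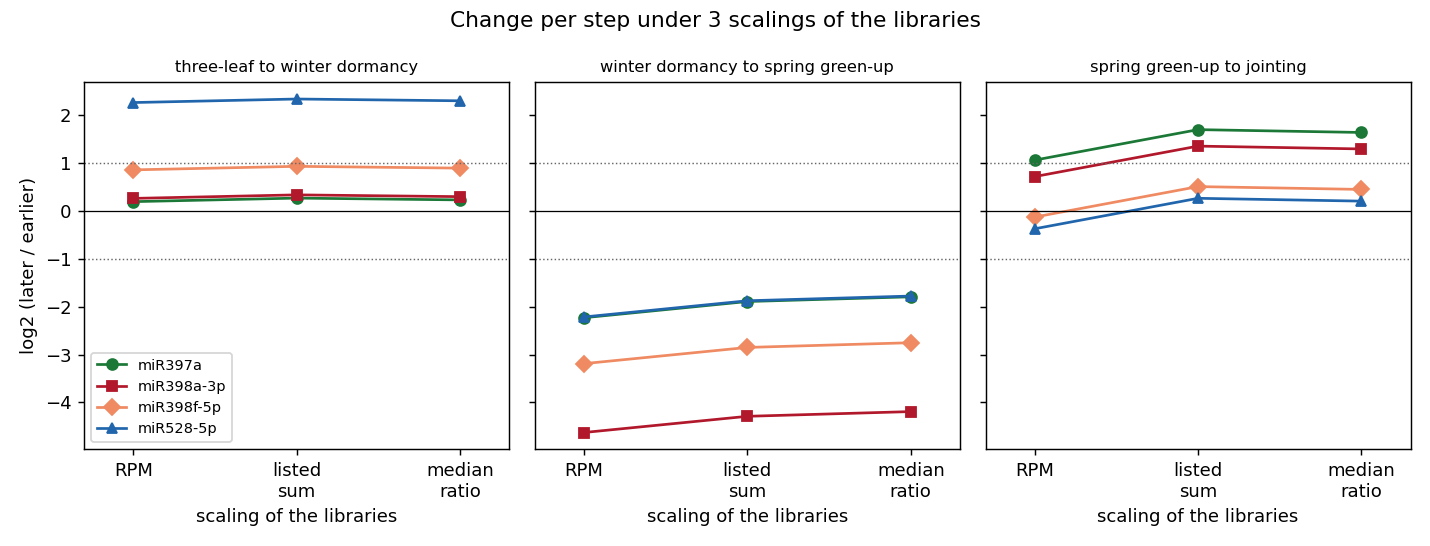
Log2 change of the 4 rows at each step on the RPM as deposited, after scaling to the summed RPM of listed miRNAs, and after median-ratio scaling. The dotted lines mark a 2-fold change. At the first and second steps no row changes sign or crosses 2-fold, and at the third miR398f-5p and miR528-5p move from below to above 0 and miR398a-3p crosses 2-fold.

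As a description of the shared course, all 4 rows were highest at dormancy, as were 29.2% of the 277 miRNAs above 5 RPM in at least 1 library. All 4 were also higher at dormancy than before it and then lower at green-up, at any size, a course that 33.9% of the 277 took. On RPM as deposited, the libraries from before spring were both above the spring libraries for miR397a, miR398a-3p and miR398f-5p, but not for miR528-5p. On the same scale, 42.6% of the 277 had this order. miR397a lost it under either scaling, where its log2 change from the three-leaf stage to jointing was 0.083 or 0.085, against -0.97 on RPM. The 4 rows are not independent of each other, since both miR398 rows can come from the same hairpin.

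The size of the changes differed between the rows even where the direction was shared. In a difference between rows of the same libraries the scaling cancels out, so these comparisons do not depend on it. Over 3 steps and 6 pairs of rows, 14 of 18 differences had exact 95% intervals that excluded 0. These 18 differences reuse the same 4 rows. The share among pairs of other miRNAs was not counted, so the number cannot be called particular to these families. At the first step, 5 of the 6 pairs differed, and miR528-5p had the highest change of the 4, with a log2 difference of -2.07 for miR397a minus miR528-5p (-2.41 to -1.73) and of -1.41 for miR398f-5p minus miR528-5p (-1.73 to -1.08). The pair without a difference was miR397a and miR398a-3p (-0.25 to 0.12). At the second step, the change of miR397a minus that of miR398a-3p was 2.4 (1.98 to 2.82), while miR397a and miR528-5p differed by -0.02 (-0.41 to 0.38). At the third step, the change of miR397a exceeded that of miR528-5p by 1.44 (0.94 to 1.95) and that of miR398f-5p by 1.19 (0.77 to 1.62), but its difference from miR398a-3p had an interval of -0.16 to 0.85. The intervals allow for counting error and not for variation between plants.

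The rows of miR398 did not keep a fixed ratio. miR398a-3p made up 64.4% of the reads of both miR398 rows at the three-leaf stage (exact interval 62.5% to 66.2%) and 54.5% at dormancy (52.8% to 56.1%). It was the minor row at green-up, with 30.6% (25.1% to 36.5%), and had 44.3% at jointing (38.4% to 50.2%). In RPM, the ratio of miR398a-3p to miR398f-5p went from 1.81 to 1.2, 0.44 and 0.792. No neighbouring stages had overlapping intervals. The log2 change of miR398a-3p minus that of miR398f-5p was -0.60 at the first step (-0.75 to -0.44), -1.44 at the second (-1.85 to -1.04) and 0.85 at the third (0.32 to 1.38). Whether the rows gather reads from more than 1 hairpin was not tested.

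**Figure D4:**
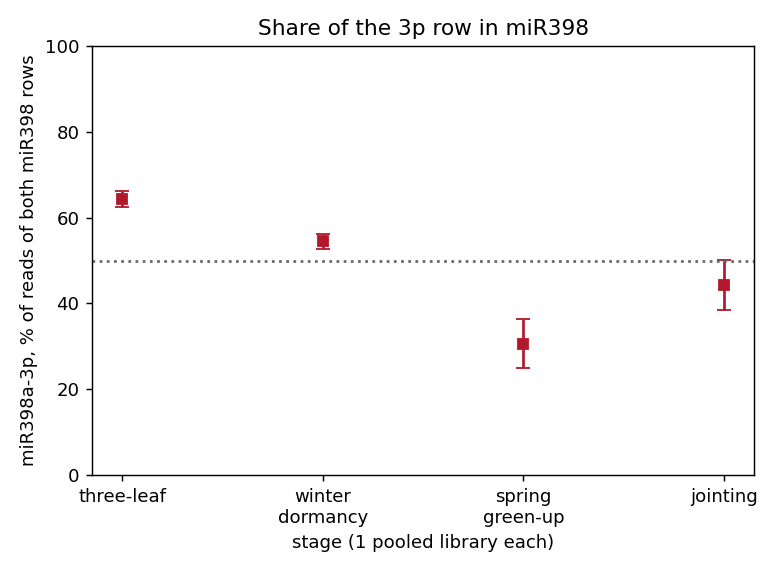
Share of miR398a-3p in the reads of both miR398 rows at the 4 stages, in percent. Squares are shares with exact 95% binomial intervals for counting error, and the dotted line marks equal shares. The share is 64.4% at the three-leaf stage, 30.6% at green-up and 44.3% at jointing.

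In miR528 the 5p row dominated throughout, with 81.0% of the reads at the three-leaf stage (73.4% to 87.2%) and 86.3% at dormancy (83.3% to 89.0%), intervals that overlapped. In both spring libraries the 3p row was listed at 0. With that 0 taken as 3 reads, beside about 116 and 85 reads of miR528-5p, the share of the 5p row was 97.5% at green-up and 96.6% at jointing, with lower exact limits of 92.8% and 90.4%. For miR397 the arm listed above 0 at all stages was miR397a. At jointing, where miR397-3p was also listed above 0, miR397a held 94.0% (90.9% to 96.2%).

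The miRNAs with the most similar course were sought for each row by the root mean square difference of log2 RPM, centred over the 4 libraries, among 182 others above 0 in all libraries and above 5 RPM in at least 1. For miR397a they were miR169g (0.256), miR399b (0.318) and miR396b-5p (0.348). miR169, which targets NF-YA transcription factors, had 229.1, 295.9, 41.2 and 90.1 RPM as miR169g, with the same minimum at green-up and partial return at jointing. For miR398a-3p they were miR9778 (0.260), miR169a-5p (0.546) and miR5200a-3p (0.583), and for miR398f-5p the wheat_miRNAs wheat_miR2079 (0.349), wheat_miR259 (0.359) and wheat_miR1419 (0.459). miR9778 went from 705 RPM at dormancy to 44.3 RPM at green-up. For miR528-5p the nearest were wheat_miR2129 (0.467), miR5060 (0.534) and miR8155 (0.583), and wheat_miR2129, the closest, went from 12.04 to 23.67, 7.36 and 6.83 RPM. The copper rows were less like each other than like these. miR398f-5p ranked 6 in likeness to miR398a-3p (0.753), whereas miR397a ranked 22 (1.28) and miR528-5p 69 (1.65). In likeness to miR397a, miR398f-5p ranked 54, miR528-5p 80 and miR398a-3p 144 of the 182. These ranks describe 4 libraries and say nothing of shared control.

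For comparison with other miRNAs that respond to mineral supply, the table listed 1 row each of miR395, the regulator of sulfate assimilation, and of miR399, miR827 and miR2111, which act in phosphate supply. From dormancy to green-up, 1 of the 3 tested rows passed as lower, miR399b, from 95.3 to 33.7 RPM, which was also among the rows most similar to miR397a, and the median log2 change was -0.51, against -2.71 for the copper rows. miR827 had 89.9, 56.8, 40.5 and 12.5 RPM at the 4 stages, with its highest value at the three-leaf stage and not at dormancy. miR2111a-3p was listed at 0 until green-up and at 568.5 RPM at jointing. Among the conserved families without the copper rows, 12 of 33 tested miRNAs passed as lower from dormancy to green-up and 9 as higher, with a median of -0.61. Whether the copper rows differ from these lists was not tested, as there is 1 library a stage.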

How the data were processed

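The authors pooled total RNA of 3 biological replicates per stage, sequenced 1 small RNA library per stage on a BGISEQ-500, removed low-quality reads, adaptors and, with SOAP, reads of other RNA classes and repeats, and searched miRBase plant miRNAs by BLASTN, where a match with fewer than 2 mismatches made a known miRNA. The deposited values are RPM, tags per 1000000 reads (headed TPM), without a length correction, with 1 decimal in rows of known miRNAs and 2 decimals in rows of wheat_miRNAs. RPM moves with all other small RNAs in a library.

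Library depth was recovered from the 2-decimal values under 60 RPM. In each library, 1 depth turned all of them (42 to 46 values) into whole reads within the rounding of 0.005 RPM, and depths away from it at most 57.8%. Reads of the copper rows are RPM times depth, rounded, and uncertain by about 1 read. Levels have 95% Wilson intervals, and changes and shares exact binomial intervals. A listed 0 was set to 3 reads. A miRNA passed at a log2 change beyond 1 with more than 5 RPM in 1 of the libraries. DEGseq was not run and no p-value is given, because each stage has 1 library. The calculations were tested on simulated reads. The named miRNAs are all rows of the name rule, the 3 most similar to each of 4 rows, and the nutrient families. Members and lists were chosen with earlier results of these data known. The alternatives covered scaling, zeros, level, fold and 1 row per family. Software was scipy 1.17.1 and numpy 2.4.6 under Python 3.11.15, with matplotlib 3.10.9 for plots. The qRT-PCR data and target transcripts were not analysed here.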

Additional observations from a re-analysis of the deposited data

How the results depend on the processing

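No paired analysis was possible because each stage has 1 library. The counts of copper rows passing from the three-leaf stage to green-up (3 lower), from dormancy to green-up (4 lower) and from dormancy to jointing (4 lower) stayed within 1.5 times the value under all 7 alternatives. Without a level filter, 3 rows passed from the three-leaf stage to dormancy (1 with it), 5 from the three-leaf stage to jointing (2 higher and 3 lower, against 2 lower with it) and 3 from green-up to jointing (1 with it), because the low rows then counted. From dormancy to jointing 6 then passed, 1 higher and 5 lower. Taking 1 row per family left 1 from the three-leaf stage to jointing, as only 1 miR398 row was kept. From green-up to jointing, either scaling gave 2, and a pseudocount of 1 RPM or a fold threshold of 4 gave 0. Scaling to the listed sum and to the median ratio reversed 5 of 37 log2 changes each: miR397a from the three-leaf stage to jointing (0.083 and 0.085), miR528-5p over the same span (0.736 and 0.738) and from green-up to jointing (0.27 and 0.21), miR398f-5p from green-up to jointing (0.51 and 0.45), and miR408d from dormancy (2.3 RPM) to jointing (0.78 and 0.81, against -0.20 on RPM). The pseudocount reversed none. The 3 low rows rest on at most 80 reads, and depth gives no measure of variation between plants.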
